A study of Mus musculus with 12 samples.

Results

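The enzymes that make serine and carry its carbon through the folate cycle were followed in cultured mouse glioma-model cells kept in hypoxia, with or without brefeldin A (BFA) or EHT-1864. The 10 genes were Phgdh, Psat1, Psph, Shmt1, Shmt2, Mthfd1, Mthfd2, Mthfd1l, Mthfd2l and Aldh1l2, taken by their symbols in the platform annotation out of 19505 named genes. Each of the 10 had a single transcript cluster, the set of array probes summed up as 1 value per gene, so no choice between clusters was needed. The cells were S100β-v-erbB/p53-/- TSC1 cultures of FVB-NJ mouse origin, grown in DMEM F-12 with B27. All groups shared the v-erbB oncogene, an active relative of the epidermal growth factor receptor driven by the S100β promoter, and the loss of p53. The labels do not explain what TSC1 stands for or how many clones or animals the cultures came from. The 4 groups of 3 arrays were hypoxia with BFA, hypoxia with EHT-1864, hypoxia with the solvent DMSO and normoxia with DMSO, each for 16 h. BFA blocks traffic between the endoplasmic reticulum and the Golgi, and EHT-1864 inhibits Rac GTPases. EHT-1864 was used at 1 µM. The labels give BFA as 1 µM in the protocol and 0.1 µM in the title, so its dose was 1 of these.

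Serine is made from a glycolytic intermediate in 3 steps, catalysed in turn by the products of Phgdh, Psat1 and Psph. Serine hydroxymethyltransferase then passes a carbon unit of serine to tetrahydrofolate, which leaves glycine. Shmt1 encodes the cytosolic form and Shmt2 the mitochondrial form. In mitochondria the folate-bound unit is oxidised by the Mthfd2 or Mthfd2l enzyme and is then released as formate by the Mthfd1l enzyme or burnt to CO2 by the Aldh1l2 enzyme, a step that yields NADPH. The cytosolic Mthfd1 enzyme takes up formate again for the making of purines and thymidylate. Several of these genes are known targets of ATF4, the transcription factor of the integrated stress response.

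Values are log2 signals, on which a step of 1 is a doubling. A level is given as mean ± SD over the 3 arrays of a group. A change is given with its standard error (SE) from a limma fit of all 12 arrays, and its adjusted p is that of Benjamini and Hochberg over all 22206 transcript clusters. "Rose" and "fell" are used for an adjusted p under 0.05. The floor of an array was the 95th percentile of its negative control probes. The floor averaged 6.49 ± 0.14 with BFA, 6.01 ± 0.13 with EHT-1864, 5.61 ± 0.02 in hypoxia with DMSO and 5.61 ± 0.02 in normoxia. The SD of all clusters averaged 2.28 with BFA, 2.41 with EHT-1864, 2.51 in hypoxia with DMSO and 2.48 in normoxia, so signal ranges were narrower under the compounds, and the part of this in the results below was not tested beyond the rescalings given. Hybridization control probes averaged 10.93 with BFA, 10.25 with EHT-1864, 9.76 in hypoxia with DMSO and 9.85 in normoxia. The part of this difference in the results below was not tested. Correlations between arrays of a group ran from 0.979 to 0.986 with BFA and from 0.9895 to 0.9953 in the other groups. BFA array 1 had the highest floor (6.65) and the most clusters under it (67.9%). Of the glioma and oligodendrocyte progenitor markers, 7 of 7 measured, Olig2 and Sox2 among them, were above the floor on all 12 arrays. None of 5 microglial and none of 5 endothelial markers was above the floor on any array. Trp53 was not analysed here.

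**Figure D1:**
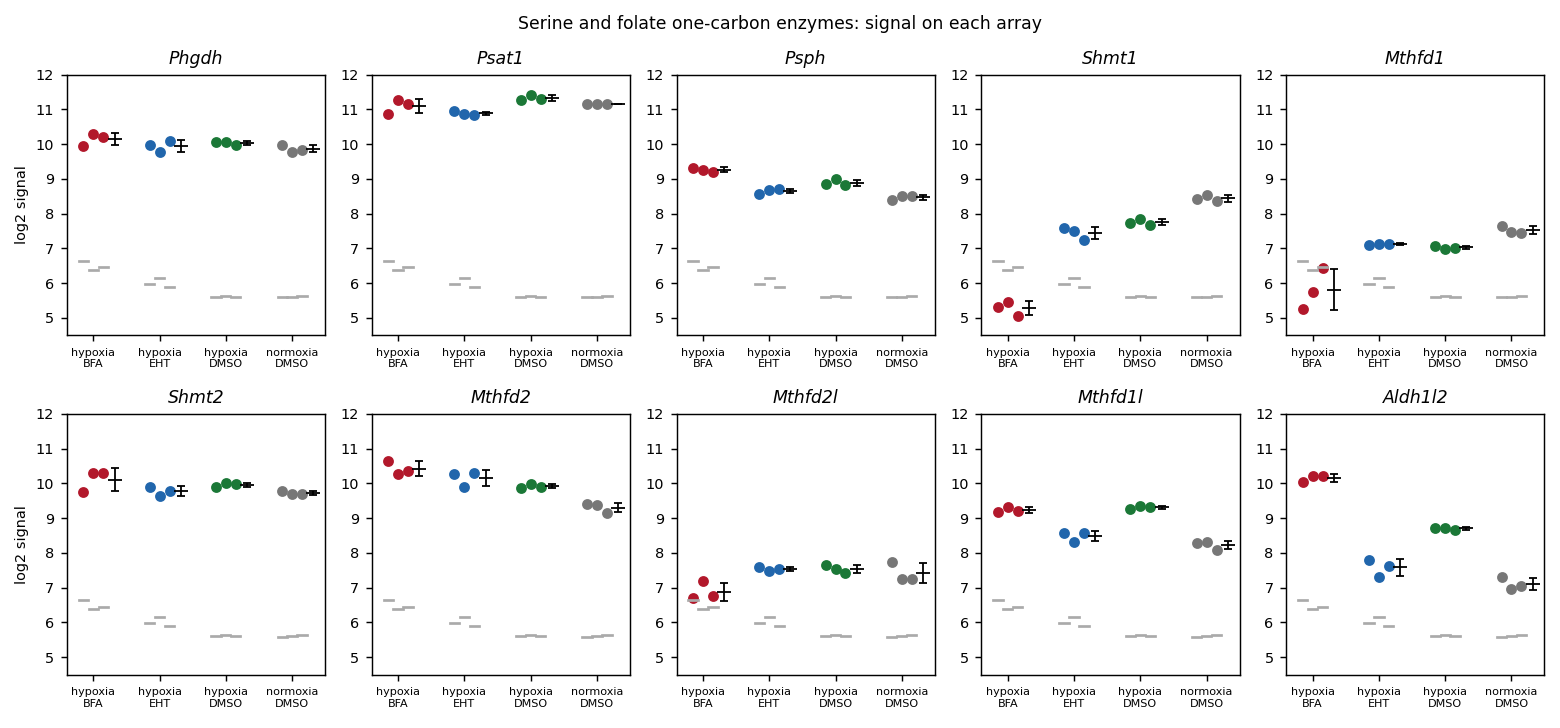
Signal of the 10 enzymes on each array, with the log2 signal on the vertical axis and the groups along the horizontal axis. Points are arrays, the black mark with its bar is the mean ± SD of 3 arrays, and grey ticks are the floor of each array. Shmt1 and Mthfd1 lie under the floor on the 3 BFA arrays, and Aldh1l2 has 4 separate levels.

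The first comparison asked how the enzymes differed between hypoxia and normoxia in DMSO. In hypoxia 3 of the 5 mitochondrial folate enzymes rose and cytosolic Shmt1 fell. Aldh1l2 rose 3.02-fold, Mthfd1l 2.11-fold and Mthfd2 1.53-fold, and Shmt1 fell 1.61-fold. These were 4 of 10 members called, 3 higher and 1 lower, beside 2.67% of all clusters called (2.11% higher and 0.563% lower). The median change of the 10 was 0.21, beside −0.03 over all clusters. In bulk RNA, fewer cells of a type and less RNA per cell cannot be told apart.

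Aldh1l2, which encodes the mitochondrial 10-formyltetrahydrofolate dehydrogenase, had values of 8.73, 8.73 and 8.66 in hypoxia, against 7.30, 6.97 and 7.06 in normoxia. All hypoxic arrays lay above all normoxic ones. The change was 1.59 (SE 0.14, limma adjusted p = 1.94e-05), and 0.311% of all clusters had a larger rise. Mthfd1l, the mitochondrial formate-releasing synthetase, had 9.26, 9.35 and 9.31 in hypoxia and 8.28, 8.30 and 8.09 in normoxia. Its 2 groups were also fully apart, with a change of 1.08 (SE 0.12, limma adjusted p = 1.44e-04), which 0.675% of clusters exceeded.

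Mthfd2, the mitochondrial dehydrogenase and cyclohydrolase, had 9.86, 9.97 and 9.90 in hypoxia, against 9.39, 9.37 and 9.15 in normoxia. The arrays did not overlap, but the change of 0.61 (SE 0.15) only just passed (limma adjusted p = 0.0452). It did not pass when any 1 of the 6 arrays compared was left out (adjusted p between 0.0965 and 0.198), nor after array medians were subtracted (0.0520) or after quantile normalization (0.0529). Its relative Mthfd2l, which catalyses the same steps, differed by 0.13 (SE 0.16, limma adjusted p = 0.764) with overlapping arrays. Shmt2, which feeds the mitochondrial branch, differed by 0.24 (SE 0.15, limma adjusted p = 0.478).

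Shmt1 had 7.73, 7.85 and 7.67 in hypoxia and 8.41, 8.54 and 8.36 in normoxia. Every hypoxic array was lower, the change was −0.69 (SE 0.14, limma adjusted p = 0.0167), and 0.221% of clusters fell further. The call was lost without hypoxia DMSO array 1 or 3 or any 1 of the normoxia arrays (adjusted p between 0.0535 and 0.0911). Mthfd1, the other cytosolic enzyme, had 7.07, 6.99 and 7.02 in hypoxia and 7.65, 7.48 and 7.44 in normoxia. The groups did not overlap, as in 30.2% of all clusters, and the change of −0.49 (SE 0.22) did not pass (limma adjusted p = 0.300). This SE pools the spread of every group, and the SD of Mthfd1 was 0.60 with BFA, 0.04 in hypoxia with DMSO and 0.11 in normoxia. In the fit of only the 6 arrays compared the SE was 0.10 and the fall passed (limma adjusted p = 0.0318). Mthfd1 did not pass in the other 19 alternative fits.

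The serine synthesis enzymes did not pass in hypoxia. Phgdh, the enzyme of the first step, differed by 0.17 (SE 0.13), and Psat1, the aminotransferase of the next step, differed by 0.17 (SE 0.12). Psph, the phosphatase of the last step, had 8.86, 8.98 and 8.81 in hypoxia and 8.39, 8.51 and 8.51 in normoxia. Its arrays were apart, and its change of 0.41 (SE 0.11) came close to the threshold (limma adjusted p = 0.0643). Psph did pass as higher in 6 of 20 alternative fits (adjusted p between 0.00827 and 0.0487). Among these were the fit of only the 6 arrays compared (0.0487) and the fit with array weights (0.0123).

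The promoters of Mthfd1l and Mthfd2, which rose in hypoxia, and of Shmt1, which fell, are shown so that the members with opposite changes can be read side by side. Each window runs from 250 bases before to 50 bases after the start, is from RefSeq on GRCm38.p6, and is written 5′ to 3′ in the direction of the gene. Capitals mark ACGTG or its reverse complement CACGT, a form of the core that HIF binds. The other form, GCGTG or its reverse complement CACGC, was not searched for and is not marked. Mthfd1l lies at chr10:3972825-3973124 (plus strand), Mthfd2 at chr6:83317555-83317854 (minus strand) and Shmt1 at chr11:60811216-60811515 (minus strand).
Mthfd1l: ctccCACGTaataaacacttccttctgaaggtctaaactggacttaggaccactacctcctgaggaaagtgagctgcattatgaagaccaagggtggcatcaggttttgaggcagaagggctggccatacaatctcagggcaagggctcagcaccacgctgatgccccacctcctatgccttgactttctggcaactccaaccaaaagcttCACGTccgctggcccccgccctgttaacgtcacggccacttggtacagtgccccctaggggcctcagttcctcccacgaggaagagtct
Mthfd2: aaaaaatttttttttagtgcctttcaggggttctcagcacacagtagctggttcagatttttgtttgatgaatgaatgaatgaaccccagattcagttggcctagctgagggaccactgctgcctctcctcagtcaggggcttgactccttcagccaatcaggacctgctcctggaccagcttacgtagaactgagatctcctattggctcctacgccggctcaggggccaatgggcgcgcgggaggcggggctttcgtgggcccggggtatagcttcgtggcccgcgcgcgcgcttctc
Shmt1: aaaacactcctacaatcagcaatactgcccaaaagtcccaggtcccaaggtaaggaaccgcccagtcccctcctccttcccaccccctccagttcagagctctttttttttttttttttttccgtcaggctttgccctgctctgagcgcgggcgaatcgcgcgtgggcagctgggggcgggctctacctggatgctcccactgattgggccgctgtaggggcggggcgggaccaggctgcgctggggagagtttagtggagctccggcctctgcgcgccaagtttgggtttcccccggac

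In the Mthfd1l window ACGTG occurred at positions −246 and −39 from the start, both as CACGT, and the Mthfd2 and Shmt1 windows held no ACGTG. The unmarked form does occur, as GCGTG in the Shmt1 window and as CACGC in the Mthfd1l window. Thus the marks do not show which windows lack a HIF core. RefSeq windows were matched for 9 of the 10 genes, with 10 windows in all since Psat1 had 2. The gene without a window was Aldh1l2, which had the largest rise in hypoxia, so the counts below do not cover it. ACGTG, read on both strands, was found in 3 of these 10 windows (Psat1, Psph and Mthfd1l), beside 19.6% of all 32851 promoter windows. The letters TGATGNAA, an amino acid response element that ATF4 binds with a C/EBP partner, were in 0 of the 10 windows on either strand, beside 3.97% of all windows. The E-box CACGTG, which overlaps the ACGTG core, was in 0 of the 10 beside 7.15%. These are matches of letters only, and elements outside the windows were not looked for.

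**Figure D2:**
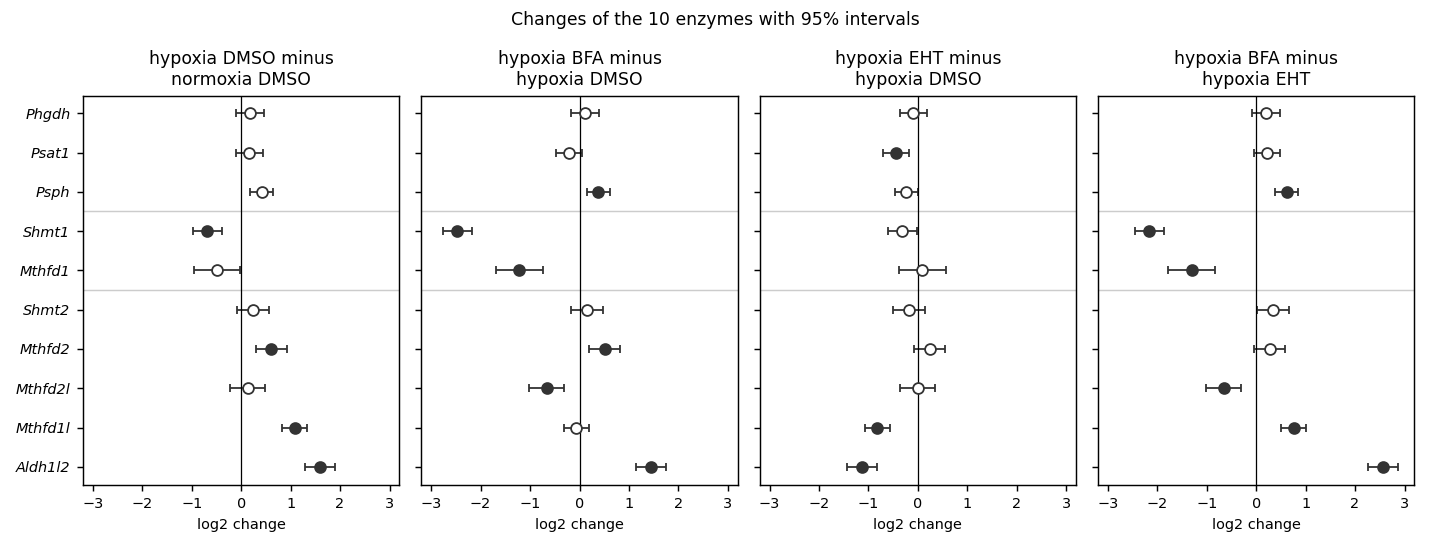
Log2 change of each enzyme (horizontal axis) in 4 comparisons, with 95% intervals from the limma fit. Filled points have an adjusted p under 0.05, and grey lines separate serine synthesis, cytosolic folate and mitochondrial folate enzymes. Aldh1l2 lies right of 0 with BFA and left of 0 with EHT-1864, each against DMSO in hypoxia.

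BFA was then set against DMSO under hypoxia, to see which enzymes it moved. They went in both directions: Aldh1l2 rose 2.73-fold, Mthfd2 1.42-fold and Psph 1.30-fold, while Shmt1 was at least 2.39-fold lower, Mthfd1 at least 1.45-fold lower and Mthfd2l 1.59-fold lower. Of the 10 members, 3 rose and 3 fell, beside 50.7% of all clusters called with BFA (26.1% higher and 24.6% lower). The arrays did not overlap for 6 of the 10, beside 55.9% of all clusters. The share of members called was thus near that of all clusters, and the results here are the sizes and directions of single enzymes. The comparison shares its hypoxia DMSO arrays with that against normoxia.

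Aldh1l2 reached 10.04, 10.22 and 10.20 with BFA, against 8.73, 8.73 and 8.66 with DMSO. All BFA arrays were above all DMSO arrays. The change was 1.45 (SE 0.14, limma adjusted p = 3.36e-06), and 1.09% of clusters rose more. Mthfd2 had 10.66, 10.26 and 10.34 with BFA and 9.86, 9.97 and 9.90 with DMSO, a change of 0.51 (SE 0.15, limma adjusted p = 0.0118) that 23.0% of clusters exceeded. Psph had 9.32, 9.27 and 9.19 with BFA and 8.86, 8.98 and 8.81 with DMSO, a change of 0.38 (SE 0.11, limma adjusted p = 0.0113). For both genes the 2 groups did not overlap.

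The cytosolic enzymes lost signal. Shmt1 had 5.32, 5.46 and 5.06 with BFA, under the floor on all 3 arrays, against 7.73, 7.85 and 7.67 with DMSO. The fall passed (limma adjusted p = 2.52e-08), and since the BFA signal was background, only the bound of at least 2.39-fold can be read as its size. Mthfd1, which uses formate in the cytosol, had 5.26, 5.74 and 6.45 with BFA, also under the floor on all 3 arrays, against 7.07, 6.99 and 7.02 with DMSO. The BFA arrays were spread wider than those of any other group of this gene (SD 0.60). The fall passed (limma adjusted p = 5.55e-04), and its size is again known only as a bound, at least 1.45-fold.

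Mthfd2l went the other way to its relative Mthfd2. Mthfd2l had 6.69, 7.18 and 6.76 with BFA, close above the floor, and 7.67, 7.54 and 7.43 with DMSO. The arrays were apart and the change was −0.67 (SE 0.16, limma adjusted p = 0.00475), although after quantile normalization it was −0.33 and did not pass (adjusted p = 0.0828). Mthfd1l had 9.19, 9.33 and 9.20 with BFA and 9.26, 9.35 and 9.31 with DMSO, so its difference of −0.07 had a 95% interval of −0.32 to 0.19. Phgdh, Psat1 and Shmt2 differed by 0.12 (SE 0.13), −0.22 (SE 0.12) and 0.15 (SE 0.15) and did not pass. After quantile normalization Phgdh (0.37, adjusted p = 0.0197) and Shmt2 (0.41, adjusted p = 0.0231) passed as higher and Mthfd1l turned to 0.21, so that 5 members were called higher and 2 lower. Of all 22206 clusters, 11269 were called with the values as deposited. Between 7423 and 11948 were called in the alternatives other than leaving 1 array out, quantile normalization among them.

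EHT-1864 was set against the same DMSO arrays. It lowered 3 of the 10 enzymes and raised none: Aldh1l2 fell 2.18-fold, Mthfd1l 1.77-fold and Psat1 1.36-fold. Over all clusters 30.5% were called with EHT-1864 (13.0% higher and 17.4% lower), and the arrays did not overlap for 6 of the 10 members, beside 48.5% of all clusters. A count of 3 called of 10 was again no more than the share of all clusters. The 2 largest falls were in Aldh1l2 and Mthfd1l, the members with the largest rises in hypoxia; both comparisons use the hypoxia DMSO arrays.

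Aldh1l2 had 7.80, 7.32 and 7.63 with EHT-1864, against 8.73, 8.73 and 8.66 with DMSO, and the arrays were fully apart. The change was −1.12 (SE 0.14, limma adjusted p = 8.85e-05), and 3.33% of clusters fell further. Mthfd1l had 8.56, 8.32 and 8.56 with EHT-1864 and 9.26, 9.35 and 9.31 with DMSO. Its change was −0.82 (SE 0.12, limma adjusted p = 2.27e-04), again with no overlap. Psat1 had 10.94, 10.86 and 10.84 with EHT-1864 and 11.25, 11.41 and 11.30 with DMSO. It changed by −0.44 (SE 0.12, limma adjusted p = 0.0162), and did not pass without hypoxia DMSO array 2 (0.0624) or EHT-1864 array 3 (0.0514).

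The other 7 did not pass with EHT-1864. The cytosolic enzymes kept their signal above the floor on all 3 arrays: Mthfd1 had 7.10, 7.14 and 7.13 with EHT-1864 and 7.07, 6.99 and 7.02 with DMSO, a difference of 0.09 with a 95% interval of −0.38 to 0.56. Shmt1 differed by −0.31 (SE 0.14, limma adjusted p = 0.100), Psph by −0.24 (SE 0.11, limma adjusted p = 0.114) and Mthfd2 by 0.24 (SE 0.15, limma adjusted p = 0.247). Phgdh, Shmt2 and Mthfd2l differed by −0.09, −0.18 and −0.005. The arrays of these 3 genes overlapped between EHT-1864 and DMSO.

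Set directly against each other, BFA and EHT-1864 differed in 6 of the 10 enzymes, beside 36.5% of all clusters (16.9% higher and 19.6% lower with BFA). Aldh1l2 was 5.95-fold higher with BFA than with EHT-1864, a difference of 2.57 (SE 0.14, limma adjusted p = 4.57e-08) that only 0.0991% of clusters exceeded. Mthfd1l was 1.69-fold higher with BFA (0.76, SE 0.12, limma adjusted p = 2.04e-04) and Psph 1.53-fold higher (0.61, SE 0.11, limma adjusted p = 5.63e-04). Shmt1 was at least 1.93-fold lower with BFA (limma adjusted p = 1.14e-07), Mthfd1 at least 1.55-fold lower (4.00e-04) and Mthfd2l 1.58-fold lower (0.00639). The arrays of the 2 compounds did not overlap for these 6 of the 10, beside 42.2% of all clusters. Phgdh, Psat1, Shmt2 and Mthfd2 differed by 0.21, 0.22, 0.33 and 0.27 and did not pass, but all 4 passed as higher with BFA after quantile normalization, which gave 7 members higher and 3 lower in place of 3 and 3. Of all 22206 clusters, 8108 were called with the values as deposited. Between 6045 and 8403 were called in the alternatives other than leaving 1 array out, quantile normalization among them.

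**Figure D3:**
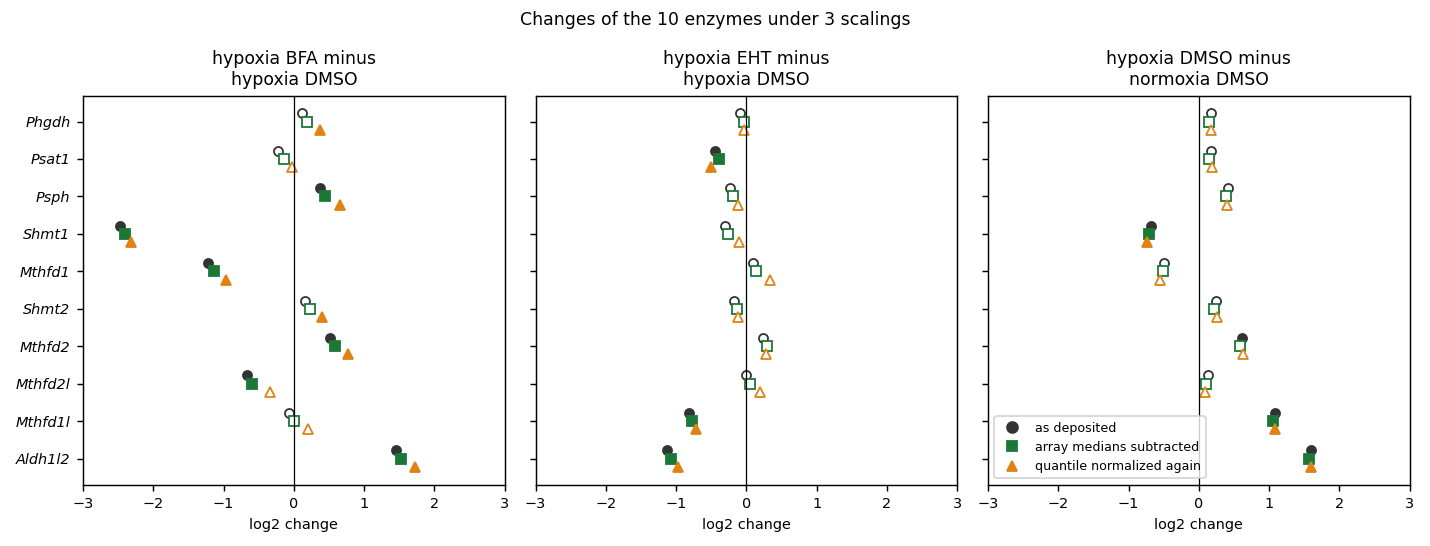
Log2 change of each enzyme (horizontal axis) with the values as deposited, with array medians subtracted and after a further quantile normalization. Filled marks have an adjusted p under 0.05. With BFA the quantile-normalized changes lie right of the deposited ones for all 10 enzymes.

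Against normoxia, hypoxia with BFA had 5 members higher and 3 lower, beside 47.0% of all clusters called (23.0% higher and 24.0% lower). Hypoxia with EHT-1864 had 2 higher and 1 lower, beside 22.4% of all clusters called (8.10% higher and 14.3% lower). The arrays did not overlap for 7 of 10 members with BFA, beside 53.6% of all clusters, and for 7 of 10 with EHT-1864, beside 42.0%. With BFA, Aldh1l2 was 8.24-fold higher than in normoxia (3.04, SE 0.14, limma adjusted p = 5.70e-09), Mthfd2 2.17-fold and Mthfd1l 2.02-fold higher, and Shmt1 was at least 3.85-fold lower (limma adjusted p = 3.13e-09). With EHT-1864, Mthfd2 was still 1.80-fold higher than in normoxia (0.85, SE 0.15, limma adjusted p = 0.00109) and Shmt1 2.00-fold lower (−0.997, SE 0.14, limma adjusted p = 1.80e-04). Mthfd1 with EHT-1864 differed from normoxia by −0.40 (SE 0.22, limma adjusted p = 0.226). It passed as lower with only the 6 arrays compared (SE 0.11, adjusted p = 0.0295) and without BFA array 3 (0.0491), but not in the other 18 alternative fits. Mthfd1l with EHT-1864 was within 0.26 (SE 0.12, limma adjusted p = 0.143) of normoxia, and Aldh1l2 was 0.47 above it (SE 0.14, limma adjusted p = 0.0292), a call that was lost without normoxia array 2 or 3 or EHT-1864 array 1 or 3 (adjusted p between 0.0846 and 0.118). Shmt2 with BFA passed against normoxia at 0.40 (SE 0.15, limma adjusted p = 0.0448), with overlapping arrays, and did not pass in 10 of the 12 fits that left out 1 array (adjusted p between 0.0505 and 0.149). Mthfd2l with BFA changed by −0.53 against normoxia (SE 0.16, limma adjusted p = 0.0176), and lost that call without BFA array 1 or 3 or normoxia array 1 (adjusted p between 0.0562 and 0.0904) and after quantile normalization (0.208).

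The order of the 4 groups thus differed between enzymes. Aldh1l2 averaged 10.15 ± 0.10 with BFA, 7.58 ± 0.25 with EHT-1864, 8.71 ± 0.04 in hypoxia with DMSO and 7.11 ± 0.17 in normoxia, and from the highest to the lowest group (BFA, hypoxic DMSO, EHT-1864, normoxia) every neighbouring pair passed. Mthfd1l averaged 9.24 ± 0.08, 8.48 ± 0.14, 9.31 ± 0.05 and 8.23 ± 0.12 in the same groups, which formed a higher pair (BFA and DMSO in hypoxia) and a lower pair (EHT-1864 and normoxia), with no call inside either pair. The EHT-1864 and normoxia arrays of Mthfd1l did not overlap, however, and after quantile normalization they differed by 0.37 (adjusted p = 0.0230). Mthfd2 averaged 10.42 ± 0.21 with BFA, 10.15 ± 0.23 with EHT-1864, 9.91 ± 0.06 in hypoxia with DMSO and 9.30 ± 0.13 in normoxia. Its neighbours BFA and EHT-1864, and EHT-1864 and hypoxic DMSO, did not differ beyond the threshold. Shmt1 ran the other way, at 5.28 ± 0.20 with BFA, 7.44 ± 0.17 with EHT-1864, 7.75 ± 0.09 in hypoxia with DMSO and 8.44 ± 0.09 in normoxia, and only its neighbours EHT-1864 and hypoxic DMSO did not differ beyond the threshold. Phgdh stayed within a range of group means from 9.86 to 10.15 and passed in none of the 6 comparisons with the values as deposited. With BFA against normoxia it differed by 0.29 (limma adjusted p = 0.0880), which passed in 5 of 20 alternatives and was 0.55 after quantile normalization (adjusted p = 0.00199).

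Genes around these enzymes were read from lists of neighbouring steps and regulators, and the counts are descriptions. Beside the list counts in hypoxia stand 2.11% of all clusters higher and 0.563% lower. In hypoxia against normoxia none of 10 other folate cycle and folate transport genes, 4 glycine cleavage genes, 9 methionine cycle and transsulfuration genes or 11 purine synthesis genes passed. Lists of this size with none called are near the share of all clusters. Of 10 serine and glycine transport and use genes, 1 rose: Slc1a4, a transporter of serine and other neutral amino acids, changed by 1.21 (SE 0.22, limma adjusted p = 0.00970). In the list of ATF4 with its partners and targets 9 of 12 rose and none fell (median 1.11), among them the kinase-like regulator Trib3 at 1.88 (SE 0.20), the stress gene Nupr1 at 2.28 (SE 0.17) and Ddit4, an inhibitor of mTORC1, at 2.34 (SE 0.19). Atf4 itself changed by 0.72 (SE 0.12, limma adjusted p = 0.00514).

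Beside the list counts with BFA stand 26.1% of all clusters higher and 24.6% lower. Of 11 purine synthesis genes, whose products use formyl folate at 2 steps, 8 fell and none rose (median −0.87), with 7 falling and 1 rising after array medians were subtracted and 6 falling after quantile normalization. Atic, which encodes the enzyme of the last such step, had −1.35 (SE 0.14, limma adjusted p = 6.75e-06). Of 10 other folate genes 6 fell and 1 rose (median −0.94). Among the 6, Mthfs, Mthfsl and Slc46a1 were under the floor on all 3 BFA arrays. Their means in hypoxic DMSO were 5.63, 5.65 and 5.70, under the mean floor of 6.49 with BFA. No size can be given for these falls, and the list median rests partly on background signal. Slc19a1, the folate carrier of the cell surface, had −1.65 (SE 0.14), Tyms, the thymidylate synthase that spends a folate unit, had −1.21 (SE 0.14), and the 1 that rose was Slc25a32, the carrier of folate into mitochondria, at 0.66 (SE 0.19, limma adjusted p = 0.0135). Of 4 glycine cleavage genes 3 fell, and Gldc, the decarboxylase of that system, was under the floor on all 3 BFA arrays, so that no fold could be given from the floor. Of 9 methionine cycle and transsulfuration genes 2 passed as higher and 4 as lower, and 1 of the 2 higher, Bhmt, was above the floor on none of the 12 arrays. Of 10 serine and glycine transport and use genes 2 rose and 4 fell. Cth, which makes cysteine by transsulfuration, rose by 1.88 (SE 0.26, limma adjusted p = 6.10e-05), and Sfxn1, the mitochondrial serine carrier, changed by −1.40 (SE 0.14, limma adjusted p = 3.82e-06). In the ATF4 list 8 of 12 rose and 1, Ddit4 at −0.82 (SE 0.19), fell (median 0.94). The largest rise was in Atf3, at 3.07 (from 6.67 with DMSO to 9.73 with BFA). Atf4 had 1.09 (SE 0.12), Ddit3 had 2.49 (SE 0.16) and Chac1, a glutathione-degrading enzyme, had 1.37 (SE 0.21). Asns, an ATF4 target that makes asparagine, differed by 0.02 (SE 0.15, limma adjusted p = 0.939). Of 4 other regulators 3 passed as lower with BFA, of which 1, Mycn, was above the floor on none of the 12 arrays, and none passed with EHT-1864 or in hypoxia against normoxia. Myc, a known activator of serine and folate genes, changed with BFA by −1.85 (SE 0.11, limma adjusted p = 5.42e-08). Progenitor markers moved alongside, with 6 of 7 falling with BFA (median −2.60) and 6 of 7 with EHT-1864 (median −0.93). Of 5 astrocyte markers 3 passed as lower with BFA and 3 with EHT-1864, and of 5 neuron markers 2 with BFA and 1 with EHT-1864. Of 5 fibroblast and pericyte markers 2 passed as higher with each compound, Col1a1 and Dcn with BFA, and Dcn and Acta2 with EHT-1864. Acta2 averaged 3.78 in hypoxic DMSO and 5.59 with EHT-1864, where it was above the floor on 1 array. With BFA 1 microglial and 1 endothelial marker passed as higher, and with EHT-1864 1 microglial marker, none of them above the floor on any array. Of the astrocyte, neuron, fibroblast and pericyte markers called with either compound, Gja1 (astrocyte, lower) and Dcn (fibroblast, higher) were above the floor on none of the 12 arrays. The astrocyte markers Aldoc and Slc1a3 averaged 12.42 and 8.23 in hypoxic DMSO, and 11.17 and 6.59 with BFA. The neuron marker Map2 averaged 9.36 in hypoxic DMSO and 7.44 with BFA. Col1a1, a fibroblast collagen, was above the floor on all 12 arrays. Gfap, Aqp4, Rbfox3, Snap25 and Lum were never above it and were not called with either compound against hypoxic DMSO. The part of these markers in the enzyme changes was not tested.

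With EHT-1864, where 13.0% of all clusters were higher and 17.4% lower, 8 of 10 genes of serine and glycine transport and use fell and none rose (median −0.76), and 6 falling after quantile normalization. Slc38a2, a transporter of small neutral amino acids, had −0.96 (SE 0.15, limma adjusted p = 5.19e-04), the glutamine and serine transporter Slc1a5 had −0.92 (SE 0.18) and the serine palmitoyltransferase subunit Sptlc2 had −1.04 (SE 0.12). Slc25a32 was at least 1.20-fold lower and under the floor on all 3 EHT-1864 arrays (limma adjusted p = 0.00216). Of 10 other folate genes 1 rose and 3 fell, of 4 glycine cleavage genes 1 rose and 3 fell, and of 9 methionine cycle and transsulfuration genes 1 rose and 1 fell. Tyms rose by 0.52 (SE 0.14, limma adjusted p = 0.0121). Of 11 purine synthesis genes 2 rose and 2 passed as lower (median 0.03), and 1 of the 2 lower, Impdh1, was above the floor on none of the 12 arrays. In the ATF4 list 4 of 12 rose and 1 fell, with a list median of 0.21. The largest rise was again in Atf3, at 2.28 (from 6.67 with DMSO to 8.95 with EHT-1864). Ddit3 had 1.66 (SE 0.16) as higher and Ddit4 had −1.79 (SE 0.19) as lower, while Atf4 had 0.15 (SE 0.12, limma adjusted p = 0.354).

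**Figure D4:**
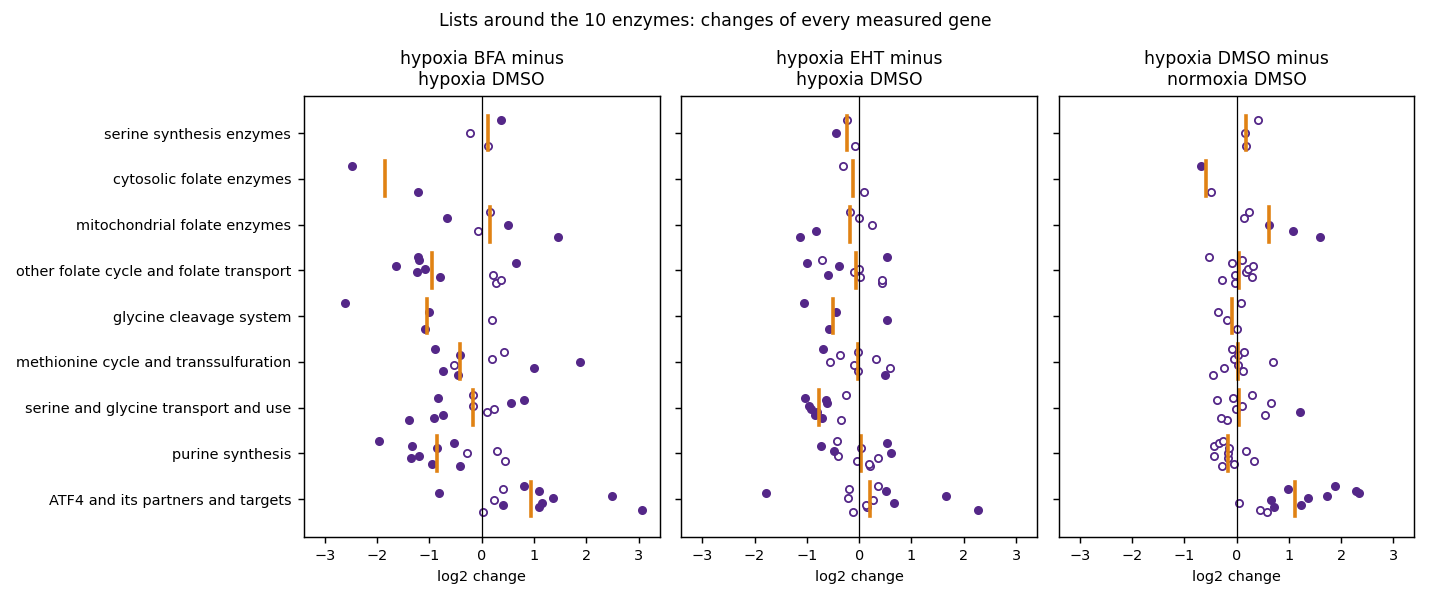
Log2 change (horizontal axis) of every measured gene of the 10 enzymes, split by role, and of the surrounding lists, in 3 comparisons. Each point is a gene, filled where its adjusted p is under 0.05, and orange bars are list medians. Purine synthesis has a median of −0.87 with BFA and 0.03 with EHT-1864, and serine and glycine transport and use has −0.76 with EHT-1864.

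Other genes were also ranked by how closely their profile over the 12 arrays followed that of 4 members, as the root mean square (RMS) difference of log2 values after each gene's own mean was subtracted, among 10024 genes above the floor on at least 3 arrays. Closest to Aldh1l2, whose own RMS about its mean was 1.18, were Slc7a3, a carrier of cationic amino acids (0.21), Kdelr3, a receptor that returns proteins to the endoplasmic reticulum (0.24), and Slc7a11, the cystine carrier (0.25). Slc7a3 averaged 7.93 with BFA, 5.51 with EHT-1864, 6.44 in hypoxia with DMSO and 4.57 in normoxia. Its means with EHT-1864 and in normoxia were under the mean floors of those groups (6.01 and 5.61), so its likeness to Aldh1l2 rests partly on background signal. Closest to Mthfd2 (own RMS 0.44) were Cebpg, a C/EBP factor that pairs with ATF4 (0.17), the kinase gene Dyrk1b (0.18) and the cell cycle inhibitor Cdkn1b (0.18). Phgdh and Psat1 varied little (own RMS 0.15 and 0.18). Their nearest genes were Lamp2 (0.06), Zfp512 (0.08) and Porcn (0.08) for Phgdh, and Eps15l1 (0.06), Rbms2 (0.08) and Rab21 (0.08) for Psat1. The arrays share their groups, so likeness here is mostly a matter of 4 group levels.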

How the data were processed

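RNA was measured on 12 Clarion S mouse arrays, 3 in each of 4 groups taken from the sample labels. The labels' design text names 3 independent cultures; whether equal array numbers in different groups mark a shared culture is not stated. The authors deposited log2 signals made by RMA in Affymetrix Expression Console, per the submitters' processing notes; the version and the genome build are not given in the sources used here. RMA normalizes the arrays to each other, so a change is relative to the other genes of an array, and the number of arrays limits the precision.

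The 28846 rows held 6640 control rows, which were left out, and 22206 transcript clusters, of which 19572 had 1 symbol in GEO's platform annotation and 2634 had none. Groups were compared with lmFit and eBayes of limma 3.58.1 (R 4.3.3) over all 12 arrays, with Benjamini-Hochberg adjustment over all clusters. The limma step was tested on simulated data. For a gene that stayed under the floor in all 3 arrays of one group, the fold is given as "at least", from the floor. The genes named were the 10 members, at most the 3 genes of each further list with the largest change among those called, the fixed genes Atf4, Ddit3, Asns, Myc, Tyms, Slc25a32 and Gldc, and the 3 genes with the closest profile to Phgdh, Psat1, Mthfd2 and Aldh1l2. Cell type markers, and genes whose calls the floor limits, were named as well. Members and lists were chosen with earlier results of these data known. Some genes of these lists were not analysed here. Alternatives were other scalings, filters, variance settings, array weights, a replicate block, the 6 arrays compared alone, and each array left out.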

Additional observations from a re-analysis of the deposited data

How the results depend on the processing

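Of 1200 values of a member in a comparison under an alternative, 1114 kept their direction and side of the threshold, 42 lost the call, 33 gained it and 11 changed sign. The sign changes were in values near 0. Mthfd1l with BFA against hypoxic DMSO turned to 0.0094 after array medians were subtracted and to 0.21 after quantile normalization. Mthfd2l with EHT-1864 against hypoxic DMSO turned to 0.0487 with medians subtracted, 0.0206 with array weights and 0.20 after quantile normalization, and ranged from −0.064 to 0.0548 with 1 array left out, being 0.0548 without hypoxia DMSO array 1, 0.0209 without EHT-1864 array 2 and 0.0009 without EHT-1864 array 3. Phgdh with EHT-1864 against hypoxic DMSO ranged from −0.1674 to 0.0035 with 1 array left out, the highest without EHT-1864 array 2. Psat1 with BFA against normoxia was 0.15 after quantile normalization and ranged from −0.1398 to 0.0641 with 1 array left out, the highest without BFA array 1. The count of members called was 5 in place of 3 for EHT-1864 against hypoxic DMSO with clusters above the floor on at least 3 arrays, all 5 lower. After quantile normalization it was 10 in place of 6 for BFA against EHT-1864, and 5 in place of 3 for EHT-1864 against normoxia. For BFA against EHT-1864, 8108 of all clusters were called as deposited, and between 6045 and 8403 in the alternatives other than leaving 1 array out. With 1 array left out it ran from 2 to 5 in hypoxia against normoxia, from 6 to 7 for BFA and from 2 to 3 for EHT-1864 against hypoxic DMSO, from 6 to 8 for BFA against EHT-1864, from 6 to 8 for BFA against normoxia and from 2 to 4 for EHT-1864 against normoxia. Of all clusters, 593 were called in hypoxia against normoxia, against 1247 with the floor filter, 2258 with array weights, 1234 with the 6 arrays alone, 1221 with a trended and robust variance, and 254 to 898 with 1 array left out (898 without BFA array 1). For BFA against hypoxic DMSO 11269 were called (5799 higher, 5470 lower), and 7423 with the floor filter (2155 higher, 5268 lower), where fewer clusters were tested. For EHT-1864 against normoxia the 1798 higher and 3167 lower became 2211 and 2507 after quantile normalization. Where no value above shows it, the cause was not tested. Whether array numbers pair the samples cannot be settled from 3 arrays a group. In deviations from the group means, 1 of 18 same-numbered pairs correlated above 0.1 (range −0.18 to 0.17). In 6 of 18 the array of the same number was the one correlated best, and all 6 were between groups without BFA. With a replicate block, members called were 3 in hypoxia against normoxia, 6 for BFA and 3 for EHT-1864 against hypoxic DMSO, 6 for BFA against EHT-1864, and 7 for BFA and 3 for EHT-1864 against normoxia. The calls lost were Mthfd2 in hypoxia against normoxia (adjusted p = 0.0703) and Shmt2 for BFA against normoxia (adjusted p = 0.0637). The block called 442, 10938, 6349, 7816, 10117 and 4570 clusters in the same order. Averaging the clusters of a gene gave no other value, since each member had 1 cluster.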
